A study of Mus musculus with 15 samples.

Results

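A set of 635 regions was bound by Sp7 in mouse primary osteoblasts and by Dlx5 in the MC3T3-E1 osteoblast cell line, but was not an Sp7 region in that line. They are called line-absent regions here. They were 635 of the 2097 Sp7 regions of primary osteoblasts (30.3%, 95% Clopper-Pearson interval 28.3 to 32.3, which covers counting error only). A region of a factor was a stretch of merged peaks, joined by an overlap of at least 1 bp, that held a peak of both replicate libraries and was free of peaks of that cell system's FLAG control. A line-absent region was a primary Sp7 region that overlapped a Dlx5 region and no cell line Sp7 region. Of the other primary Sp7 regions, 813 overlapped both a Dlx5 and a cell line Sp7 region (core regions), 631 overlapped neither (primary-only regions), and 18 overlapped cell line Sp7 without Dlx5.

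Sites were mapped by ChIP-seq with the M2 antibody against FLAG. The primary cells were calvarial osteoblasts of C57BL/6 mice at postnatal day 1, with 2 libraries of genotype Sp7-BioFL/BioFL, in which both copies of the gene carry the tag, and 1 wild-type library as control. MC3T3-E1, an osteoblast line from mouse calvaria, was used at passages 5 to 10 after 1 week in medium with BMP2 at 10 ng/ml, beta-glycerophosphate at 10 mM and ascorbic acid phosphate at 50 ug/ml, with 2 libraries each for tagged Sp7, Dlx5, Sp1 and a mutant named Sp7mut, and 1 for GFP as control. The labels name neither the mutation nor how the tagged proteins were expressed in the line, so the protein levels in the cell systems cannot be compared. Cell line Sp7 and Dlx5 peaks were called against one input library, Sp7mut and Sp1 peaks against another, and primary peaks against an input of primary cells. Nothing in the labels says whether replicates were separate cultures or litters, so differences between them may be technical. The primary Sp7 lists held 2666 and 3212 peaks and the cell line Sp7 lists 18624 and 6063. Dlx5 had 30234 and 39749 peaks, Sp7mut 10519 and 14830, and Sp1 10549 and 28210. The wild-type and GFP controls had 183 and 269. The lists give positions alone, with no score or read count, so depth is unknown, and peak lists hold no expression against which the labelled cell types could be checked.

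Sp7, also called Osterix, is a zinc finger transcription factor of the Sp family, and mice without it form no bone. Dlx5 is a homeodomain factor of the skeleton and the craniofacial tissues, and the homeodomain binds AT-rich DNA. Sp1, a widely expressed relative of Sp7, binds GC boxes, which are frequent in promoters. The title of the series presents Sp7 as a partner of Dlx proteins, and the line-absent regions are sites where primary Sp7 and cell line Dlx5 coincide without a reproducible Sp7 peak in the line.

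The name covers a reproducible peak only, since part of the regions held a cell line Sp7 peak in a single library. Of the 635 regions, 440 (69.3%) had no Sp7 peak in either cell line list. A peak was present in replicate 1 alone at 109 regions (17.2%) and in replicate 2 alone at 84 (13.2%). The remaining 2 held a peak of each list, but in separate merged stretches. In all, replicate 1 met 111 line-absent regions (17.5%, against 45.8% of all primary Sp7 regions) and replicate 2 met 86 (13.5%, against 44.4%). The rule used these lists, so the counts describe the set and carry no test. The peaks found in a single list stood at a median row percentile of 58.2 in replicate 1 and 54.3 in replicate 2. All peaks of a list that did not meet the other list stood at medians of 61.0 and 71.2. Such peaks were 72.1% of the replicate 1 list and 14.8% of the replicate 2 list. The rule also removed regions over control peaks, and 0 of the 635 overlapped a peak of the wild-type or GFP control.

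Dlx5 regions that had no Sp7 region in either cell system, 18793 in number, gave another picture in the same single lists. Replicate 1 of cell line Sp7 had a peak at 34.2% of them and replicate 2 at 2.36%. The line-absent regions were met less by replicate 1 and more by replicate 2. In the first 10% of the Dlx5 regions in row order the shares were 20.8% and 32.2% for line-absent regions and 46.5% and 10.8% for the other Dlx5 regions, for replicates 1 and 2 in turn. The rule used both lists, and both sets were chosen to lack a reproducible cell line Sp7 region. Primary Sp7 and Dlx5 sites with a shared cell line Sp7 peak became core regions, met at 99.8% by each list. The shares thus depend on that selection and describe the sets. They were not tested, and the 2 cell line Sp7 lists differ in length as given above.

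Row position in a list served as a rough measure of strength, since earlier peaks were found again more often. In the primary Sp7 lists, 98.9% (replicate 1) and 93.0% (replicate 2) of peaks from the leading 20% of rows met the other replicate, against 55.5% and 31.3% in the last 20%. In the Dlx5 lists, these shares fell from 97.2% and 93.5% to 56.7% and 27.8%. What the authors ordered their rows by is not stated.

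Line-absent regions stood between the other classes in the primary Sp7 lists. Their median row percentile, averaged over the replicates, was 44.1 (quartiles 24.3 and 64.2), against 30.2 for core regions and 51.2 for primary-only regions. They made up 24.0% of the first 20% part of the primary regions and 30.1% to 33.4% of the later parts. In the Dlx5 lists the classes lay farther apart. The median row percentile was 18.2 (quartiles 8.79 and 35.3) for line-absent regions, 2.71 for core regions and 45.7 for Dlx5 regions with no Sp7 region. These lists defined the classes, so the positions are a description without a test.

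**Figure D1:**
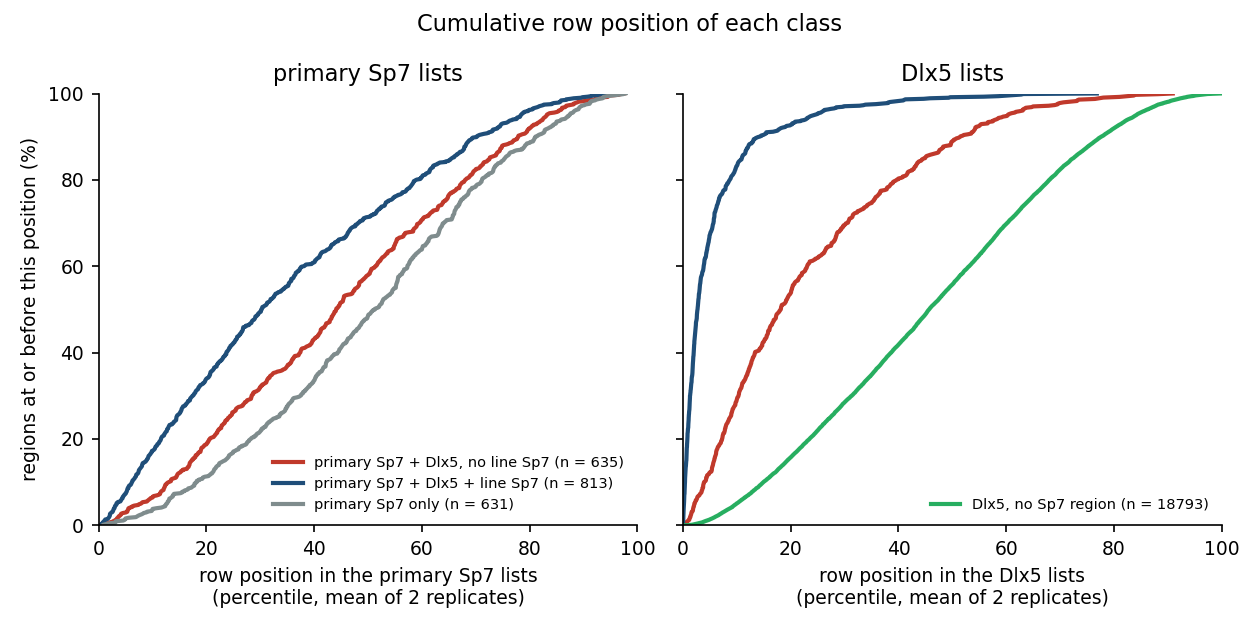
Cumulative percentage of regions against row position, as a percentile averaged over both replicates, in the primary Sp7 lists (left) and the Dlx5 lists (right). Line-absent regions (red) lie between core (blue) and primary-only regions (grey) on the left, with a median of 44.1, and between core and other Dlx5 regions (green) on the right, with a median of 18.2.

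Seen from Dlx5, few regions that lacked cell line Sp7 were primary Sp7 regions, and their share was largest at the start of the lists. Of 19426 Dlx5 regions without a cell line Sp7 region, 633 (3.26%) met a primary Sp7 region. Over the Dlx5 regions in row order, the share was 17.9% in the first 10% and 8.84% from 10 to 20%. It was 2.40% from 40 to 50% and 0.40% from 90 to 100%. Only 2097 primary Sp7 regions were available to be met, which bounds these shares. Core regions stood earlier still in the Dlx5 lists, at a median row percentile of 2.71 against 18.2 for line-absent regions. The rule used these lists, so the values are a description without a test.

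Sp7mut gave the measure of the mutant protein in the same line, from libraries the rule did not use. It met 243 of the 635 line-absent regions (38.3%, interval 34.5 to 42.2), where 48.9% of all primary Sp7 regions were met. The share was 91.5% (744 of 813) in core regions and 3.96% (25 of 631) in primary-only regions. It was lower in line-absent than in core regions by 53.3 percentage points, and this held on 20 of 20 chromosomes (two-sided exact sign test, adjusted p = 2.86e-06 over 6 contrasts). It exceeded the share in primary-only regions by 34.3 points, with 20 of 20 chromosomes in that direction (adjusted p = 2.86e-06, exact sign test). Core regions were chosen for an Sp7 region in the same line, and line-absent regions for lacking one. The direction against core for a mutant of that protein thus follows largely from this choice, and its p-value lends no separate support. Primary-only regions were set apart by the Dlx5 lists. The units here are chromosomes of the same libraries, which do not stand for new samples. With 20 of 20 chromosomes the unadjusted p was 1.91e-06, the smallest this exact sign test can give. Equal p-values therefore do not rank the contrasts. Over libraries, the classes can be compared within only 2 Sp7mut lists, where an exact two-sided paired permutation cannot fall below p = 0.5.

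The classes had the same order in each Sp7mut library. Replicate 1 had a peak at 44.3% of line-absent regions and replicate 2 at 50.4%, where 52.8% and 54.9% of all primary Sp7 regions were met. Core regions were met at 94.1% and 95.3%, and primary-only regions at 7.13% and 6.66%. The gaps between the classes were larger than the difference between the replicates in each class.

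**Figure D2:**
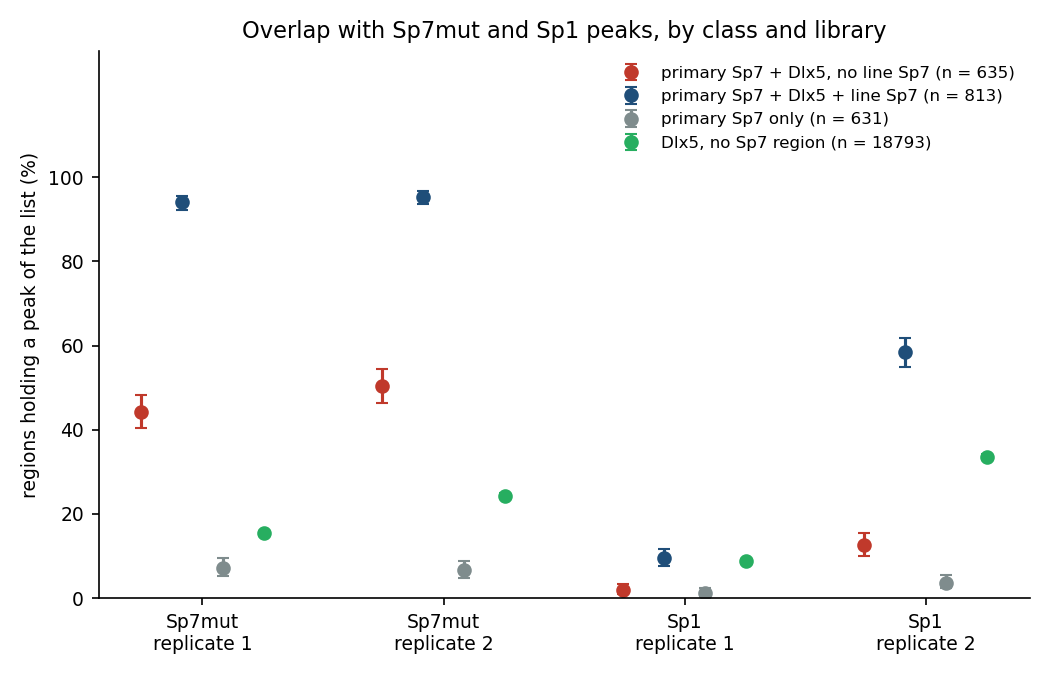
Percentage of regions that hold a peak of each Sp7mut and Sp1 library, for 4 classes of region, with 95% Clopper-Pearson intervals as bars. Line-absent regions (red) were met at 44.3% and 50.4% by Sp7mut and at 2.05% and 12.6% by Sp1, below core regions (blue) in each of the 4 libraries.

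Beyond primary Sp7 sites, the line-absent regions also met Sp7mut more often than Dlx5 regions with no Sp7 region, of which 12.4% did (2337 of 18793). The difference of 25.8 points, a contrast added after seeing the data, had the same sign on 20 of 20 chromosomes (adjusted p = 2.86e-06, exact sign test), and was 15.8 points without replicate 1 of each group. Because these classes stood at different places in the Dlx5 lists, the shares were also taken within successive 10% parts of the Dlx5 order. In the first 10%, 69.1% of 149 line-absent regions were Sp7mut regions (interval 61.1 to 76.4), against 95.9% of 641 core regions and 28.8% of 673 other Dlx5 regions. From 10 to 20% the shares were 49.0%, 79.8% and 22.1%. From 20 to 30%, line-absent regions (19.8%, interval 12.4 to 29.2) and other Dlx5 regions (17.8%, interval 16.1 to 19.7) had overlapping intervals, while core regions stood at 78.1%. From 30 to 80%, line-absent regions lay between 13.9% and 26.9% and other Dlx5 regions between 8.57% and 12.6%. Their intervals overlapped in these later parts except from 50 to 60% (11.5 to 37.8 against 8.39 to 10.96) and from 70 to 80% (11.6 to 47.8 against 8.09 to 10.6).

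**Figure D3:**
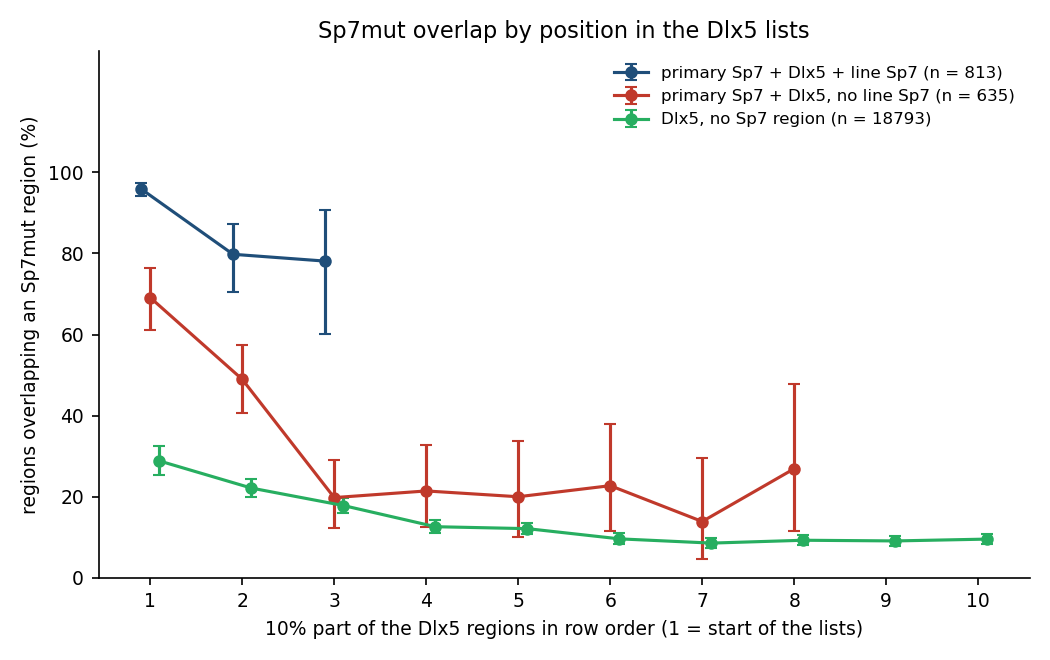
Percentage of regions that overlap an Sp7mut region, by 10% part of the Dlx5 regions in row order, with 95% Clopper-Pearson intervals; parts with under 20 regions of a class are not drawn. Line-absent regions (red) went from 69.1% in the first 10% to 19.8% from 20 to 30% and lay between core regions (blue) and other Dlx5 regions (green) in these parts.

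Position in the primary Sp7 lists made less difference to Sp7mut overlap. Within line-absent regions the share was 41.6%, 39.7%, 40.7%, 35.2% and 35.0% in the 5 successive 20% parts of the primary order, with intervals that all overlapped. In each part it lay below the share of core regions (84.8% to 96.0%) and above that of primary-only regions (1.23% to 6.56%). Line-absent regions with Sp7mut had a median row percentile of 9.77 in the Dlx5 lists and those without 24.2, whereas in the primary lists the medians were 42.9 and 45.4.

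Regions with a cell line Sp7 peak in a single list were Sp7mut regions more often than those with none. Where neither cell line Sp7 list had a peak, 125 of 440 regions (28.4%, interval 24.2 to 32.9) met Sp7mut. With a peak in replicate 1 alone it was 54 of 109 (49.5%, interval 39.8 to 59.3), and with a peak in replicate 2 alone 62 of 84 (73.8%, interval 63.1 to 82.8). The intervals do not overlap, but they cover only counting error over regions of the same Sp7mut libraries. The 3 groups were split by cell line Sp7 lists that the rule used, and their difference was not tested. Their median row percentiles in the Dlx5 lists differed as well, at 21.6, 16.2 and 6.60 in the same order, and the part of list position in the difference was not tested. The 440 regions without any cell line Sp7 peak still met Sp7mut more often than the primary-only and Dlx5 regions without any such peak, by 25.6 and 23.1 points (19 chromosomes higher and 0 lower, and 19 higher and 1 lower, exact sign tests, adjusted p = 1.14e-05 and 4.81e-05).

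**Figure D4:**
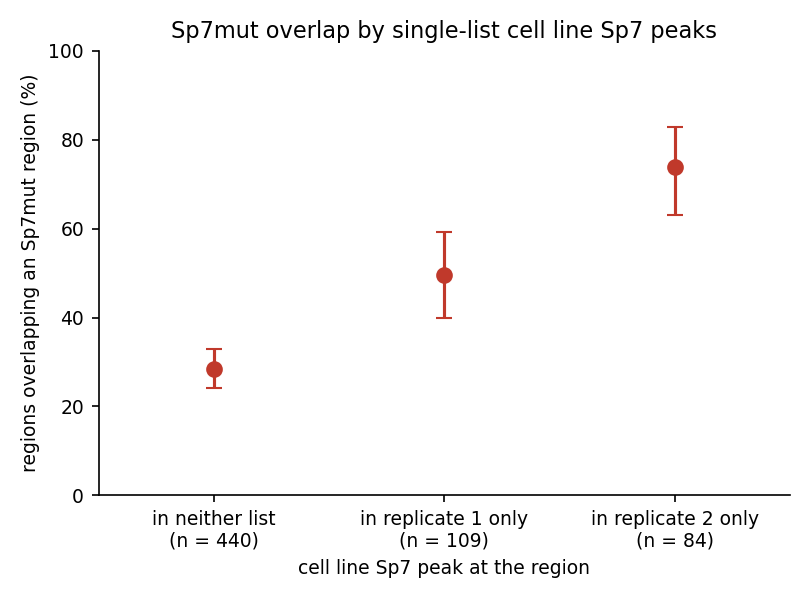
Percentage of line-absent regions that overlap an Sp7mut region, by whether a cell line Sp7 peak was found in neither list, in replicate 1 alone or in replicate 2 alone, with 95% Clopper-Pearson intervals. The shares were 28.4%, 49.5% and 73.8%; the 2 regions with a peak in each list are not drawn.

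Sp1 was rare at the line-absent regions. An Sp1 region met 12 of 635 (1.89%, interval 0.980 to 3.28), where 4.53% of all primary Sp7 regions were met. Core regions had 9.35% (76 of 813), a difference of 7.46 points, with line-absent regions lower on 17 chromosomes, higher on 1 and tied on 2 (exact sign test, adjusted p = 0.000174). With replicate 1 left out in every group, so that Sp1 was read from its longer list, that difference was 45.8 points (9.85% against 55.7%). Dlx5 regions with no Sp7 region had 8.45% (1588 of 18793), and line-absent regions were lower on 20 of 20 chromosomes (adjusted p = 2.86e-06, exact sign test, added after seeing the data). The gap of 6.56 points was 14.8 points without replicate 1 and 3.29 without replicate 2. It also depended on position in the Dlx5 order, along which the Sp1 share of other Dlx5 regions went from 3.42% in the first 10% to 14.8% from 90 to 100%. In the first 10%, line-absent regions stood at 2.69% (4 of 149), other Dlx5 regions at 3.42% (23 of 673) and core regions at 7.18% (46 of 641). From 10 to 20% the shares were 1.38%, 5.69% and 12.1%, and from 20 to 30% they were 0% (0 of 96), 5.37% and 15.6%. Against primary-only regions, at 0.317% (2 of 631), line-absent regions were higher on 11 chromosomes, lower on 2 and tied on 7 (exact sign test, adjusted p = 0.0225). That last call rests on 12 and 2 regions, and it was lost in the same exact sign test when peaks had to overlap by at least 50% of both (adjusted p = 0.688), without replicate 2 (0.146) and when any cell line Sp7 peak counted as present (0.375). The direction turned with the first 50% of rows, at 0% for line-absent regions and 1 primary-only region with Sp1. The difference from core regions was also lost at 50% overlap, at 2.65 points (exact sign test, adjusted p = 0.0785).

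Shares were higher in the longer Sp1 list, with the classes in the same order. Replicate 1 of Sp1 met 2.05% of line-absent regions (4.91% of all primary Sp7 regions) and replicate 2 met 12.6% (28.0% of all). Core regions were met at 9.47% and 58.4%, and Dlx5 regions with no Sp7 region at 8.77% and 33.6%. Both lists placed line-absent regions below both of these classes. Primary-only regions stood at 1.27% and 3.65%. The spread between the Sp1 replicates was larger than several of these gaps, so shares were compared within a list.

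Partners of the line-absent regions fell into few patterns. Neither Sp7mut nor Sp1 met 388 regions (61.1%), Sp7mut alone met 235 (37.0%), both met 8 (1.26%) and Sp1 alone met 4 (0.63%). The 12 regions with Sp1 stood between rows 991 and 9854 of Sp1 replicate 1 and between rows 2020 and 14232 of replicate 2. The earliest of them in both lists, chr5:116102842-116103075 (mm9), stood at rows 2333 and 1570 of the primary Sp7 lists, and was also an Sp7mut region. It is named here because of its values, outside the naming rule.

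Among the 10 line-absent regions that stood earliest in the primary lists, 8 had no cell line Sp7 peak in either list. Of the same 10, 6 were Sp7mut regions and 0 were Sp1 regions. Over all 635 regions these shares were 69.3%, 38.3% and 1.89%. Of the earliest 100, 42 were Sp7mut regions. The first was chr17:42534544-42534746 (mm9), 203 bp wide, at rows 11 and 25 of the primary Sp7 lists. It lay at rows 6680 and 7720 of the Dlx5 lists, had no peak in any Sp7mut, Sp1 or cell line Sp7 list, and was 478648 bp from the nearest cell line Sp7 region. This site was among the leading sites of primary Sp7, and its mean row percentile in Dlx5, 20.8, was near the median of the line-absent regions.

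The next, chr19:58375368-58375564, stood at rows 24 and 37 in primary Sp7 and at rows 6839 and 1602 in Dlx5. It was an Sp7mut region at rows 7530 and 11880, late in those lists. Then came chr17:87734789-87734968, at rows 35 and 52 in primary Sp7, 3658 and 67 in Dlx5, and 365 and 1742 in Sp7mut. Its Dlx5 replicates thus placed it far apart, and its nearest cell line Sp7 region was 15083 bp away. The fourth, chr4:45545619-45545883, stood at rows 50 and 57 in primary Sp7, 889 and 121 in Dlx5, and 1079 and 674 in Sp7mut. It had a cell line Sp7 peak in replicate 2 alone and lay 1416 bp from a cell line Sp7 region.

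Of the other 6 early regions, 3 were Sp7mut regions and 3 were not. The Sp7mut regions were chr8:95434436-95434659 (primary rows 34 and 146), chr8:117552033-117552228 (rows 101 and 87) and chr9:72222945-72223201 (rows 77 and 123). Those without were chr6:5779181-5779348 (rows 52 and 90), chr13:102672211-102672371 (rows 51 and 126) and chr5:132040073-132040310 (rows 90 and 105), of which the last had an Sp7mut peak in replicate 2 alone. Of these 6, only chr8:117552033-117552228 had a cell line Sp7 peak, in replicate 2. Sites without Sp7mut and sites with it therefore both occurred among the leading primary regions.

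The 5 line-absent regions earliest in the Dlx5 lists each held a cell line Sp7 peak in at least 1 list. At chr17:45185191-45185483, Dlx5 rows were 62 and 54, primary Sp7 rows 391 and 953, and Sp7mut rows 381 and 95, and it was 1 of the 2 regions with a peak of each cell line Sp7 list. Close by, chr17:45210249-45210433 stood at rows 64 and 84 in Dlx5, 158 and 135 in primary Sp7, and 125 and 364 in Sp7mut, with a cell line Sp7 peak in replicate 1. The second of these sites was early in the primary Sp7 lists as well, at a mean row percentile of 5.07, and the first stood at 22.2.

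A different pattern was seen on chromosome 15. At chr15:32930122-32930331 the Dlx5 rows were 69 and 62, but the primary Sp7 rows 2064 and 2776, and Sp7mut had a peak in replicate 2 alone. At chr15:44572140-44572342 the Dlx5 rows were 186 and 144 and the primary Sp7 rows 2495 and 2658, again with Sp7mut in replicate 2 alone. These sites were early in the Dlx5 lists and late in the primary Sp7 lists, at mean row percentiles of 81.9 and 88.2 in the latter. The fifth, chr5:149995176-149995411, stood at rows 313 and 206 in Dlx5, 572 and 497 in primary Sp7 and 1065 and 507 in Sp7mut, and lay 368 bp from a cell line Sp7 region.

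By base pairs, few regions lay near the 1 bp edge of the rule, whereas by the need for both replicates many did. When peaks had to overlap by at least 50% of both, the number of line-absent regions was 530 instead of 635. Of the 631 primary-only regions, 287 (45.5%) held a Dlx5 peak of replicate 2 and 29 (4.60%) a peak of replicate 1, and 195 of the 635 line-absent regions held a cell line Sp7 peak in at least 1 list. Overlap with the Dlx5 region had a median of 178 bp and covered at least 50% of the line-absent region in 92.3% of cases. The smallest overlap was 7 bp, at a 53 bp region of chromosome 18, followed by 24 bp at chr13:77559232-77559519, 29 bp at chr3:38774510-38774665, 47 bp at chr12:74121752-74121967 and 49 bp at chr6:101295331-101295584. Just outside, 6 primary-only regions lay within 100 bp of a Dlx5 region, the nearest at 15 bp (chr13:20242945-20243224). On the other side, 3 line-absent regions lay within 100 bp of a cell line Sp7 region. They were chr3:38774510-38774665, which touched one without sharing a base, the chromosome 18 region at 13 bp and chr8:86722110-86722398 at 95 bp. The next nearest were chr11:114684776-114684969 at 151 bp and chr15:10666118-10666346 at 161 bp. The core region with the smallest overlap, 1 bp, was chr5:47855800-47856134.

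Most line-absent regions were far from any cell line Sp7 region. The median distance was 93398 bp (quartiles 22578 and 240444), against 145451 bp for primary-only regions (quartiles 41100 and 445128). Within 10 kb lay a cell line Sp7 region for 101 of 635 line-absent regions (15.9%) and 68 of 631 primary-only regions (10.8%), and within 1 kb for 15 (2.36%) and 22 (3.49%). These distances derive from lists the rule used and were not tested.

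**Figure D5:**
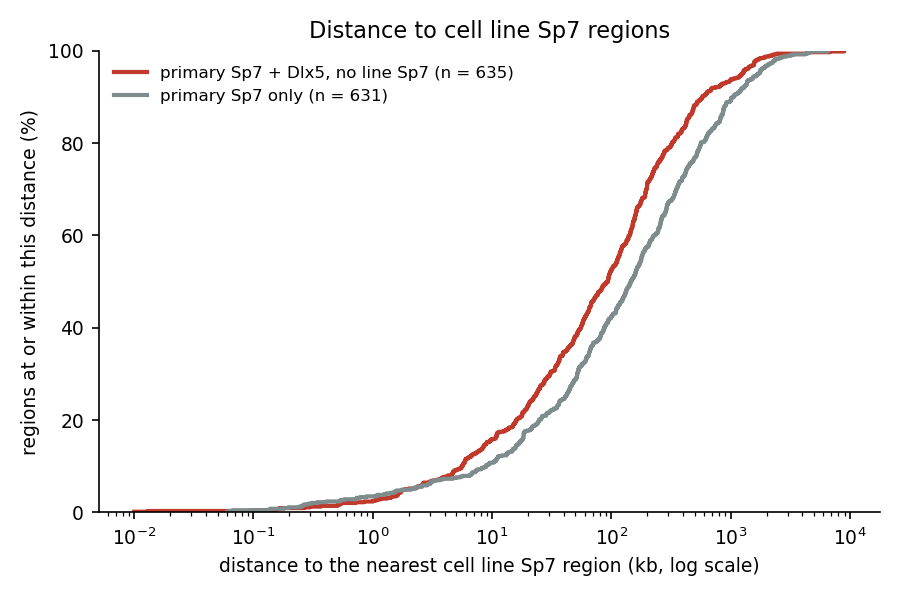
Cumulative percentage of regions against the distance to the nearest cell line Sp7 region, in kb on a log scale, for line-absent (red) and primary-only (grey) regions; the touching region is drawn at the left edge. Line-absent regions reach 15.9% and primary-only regions 10.8% at 10 kb.

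Line-absent regions were scattered in most cases. When regions no more than 50 kb apart were joined, 561 stood alone, 58 formed 29 pairs, and 16 lay in 5 groups of 3 or 4. The largest group, 4 regions in 35501 bp at chr4:62370398-62405898, held 3 Sp7mut regions, and 1 core region, 7 Dlx5 regions and 3 cell line Sp7 regions lay in the same span. A group of 3 at chr17:45171211-45210433 contained both of the sites near the start of the Dlx5 lists given above. Another group of 3, at chr6:4400725-4487092, lay in a span with 19 Dlx5 regions and 9 cell line Sp7 regions, so that dense Dlx5 binding surrounded it. A further group of 3, at chr16:74044706-74055852, had no cell line Sp7 region in its span and 1 Sp7mut region. These groups were picked by their size, outside the naming rule. Another primary Sp7 region lay within 10 kb of 11.7% of line-absent, 10.7% of core and 14.6% of primary-only regions. The mean number of Dlx5 regions within 10 kb, the overlapping one included, was 1.74 for line-absent and 1.86 for core regions.

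The centres of primary Sp7 and Dlx5 peaks lay close to each other at these sites. Midpoints were 24.5 to 27.5 bp apart in the median of each of the 4 pairs of lists, against 25 bp between the primary Sp7 replicates and 19 bp between the Dlx5 replicates at the same regions. Primary Sp7 and Sp7mut midpoints were 21.5 to 26 bp apart at the line-absent regions where their peaks overlapped. In core regions the primary Sp7 to Dlx5 distance was 19.5 to 20 bp, the distance between primary replicates 21 bp and that between Dlx5 replicates 12.5 bp. In both classes the distances between factors were near those between primary Sp7 replicates and above those between Dlx5 replicates. The rule required these regions, and the replicates within each, to overlap, so short distances follow in part from it. The differences were not tested. Widths of the merged regions were alike, with a median of 233 bp (range 53 to 804) for line-absent, 219 bp for core and 231 bp for primary-only regions.

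Line-absent regions were found on all 19 autosomes and X, from 8 on X to 51 on chromosome 6. As a share of the primary Sp7 regions they ranged from 22.7% on chromosome 10 (29 of 128) to 61.5% on X (8 of 13), with a median of 31.0%. Chromosome 6 had the highest autosomal share at 42.9% (51 of 119), and chromosome 1, which held the most core regions (89), had 22.7% (42 of 185). Sp7mut met between 12.5% (X, 1 of 8) and 55.6% (chromosome 19, 10 of 18) of the line-absent regions of a chromosome.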

How the data were processed

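The 12 deposited lists hold 3 columns (chromosome, start and end of each peak), which are the only other values the authors give. Peaks were called per library against an input library, per the labels, and the build is mm9 in the submitters' processing notes; aligner, caller and threshold: not given in the sources used here. The 3 inputs have no list here. Starts were read as zero-based and are printed 1-based. Groups and replicate numbers came from sample titles. Members and lists were chosen with earlier results of these data known. Shares have 95% Clopper-Pearson intervals. Differences were tested by a two-sided exact sign test of the differences per chromosome (20 chromosomes), adjusted by Benjamini-Hochberg over 6 contrasts, of which the 2 with other Dlx5 regions were added after seeing the data. Named are the 10 regions earliest in the primary lists, the 5 earliest in Dlx5 and the 5 nearest each edge of the rule. The 8 planned contrasts of promoters, motifs and GC content, and the gene lists fixed for naming, were not run: they need mm9 sequence or annotation, not used here, and no gene or sequence is given for a region. Region code was tested on simulated lists. Software was scipy 1.17.1, numpy 2.4.6, matplotlib 3.10.9, pandas 2.3.3 and Python 3.11.15. Alternatives were 50% overlap, control peaks kept, each replicate left out, any cell line Sp7 peak counted as present, and the first 50% of rows.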

Additional observations from a re-analysis of the deposited data

How the results depend on the processing

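Over 6 alternatives, the 3 Sp7mut differences kept their direction and stayed past the threshold, although the direction against core follows largely from the rule. With a replicate of each group left out they were -61.4 to -51.0 points from core, 25.2 to 33.1 from primary-only and 15.8 to 29.9 from other Dlx5 regions. The number of line-absent regions was 530 at 50% overlap and 317 in the first 50% of rows. It was 668 to 1208 with a replicate of each group left out, where 1 peak then suffices for a region. The Sp7mut share of line-absent regions was 31.5% to 37.6% with a replicate left out and 28.4% when any cell line Sp7 peak counted as present. Their Sp1 share was 0.943% at 50% overlap, 5.46% with control peaks kept, 1.35% to 9.85% with a replicate left out, 0.909% when any cell line Sp7 peak counted as present and 0% in the first 50% of rows. The Sp1 difference from core regions was -2.65 points at 50% overlap (exact sign test, adjusted p = 0.0785), no longer past the threshold, -2.70 in the first 50% of rows and -45.8 to -8.67 with a replicate left out. That from other Dlx5 regions was -14.8 to -3.29 with a replicate left out and -3.22 to -2.30 under the other 4 alternatives, past the threshold in each. The Sp1 difference from primary-only regions was 0.642 points at 50% overlap, 0.858 to 5.10 with a replicate left out and 0.743 when any cell line Sp7 peak counted as present, past the threshold only without replicate 1 among these, and it turned to -0.324 in the first 50% of rows. The cause of these shifts was not tested. Across groups, no paired analysis was possible because the tested contrasts are between classes of region, not between numbered samples of different groups. Within the same libraries the classes can be paired, and the sign test paired them by chromosome. Over the 2 Sp7mut lists, an exact two-sided paired permutation cannot fall below p = 0.5. The shares per library stand in the report. Depth is unknown, so a missing peak need not mean an unbound site.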
